A study of Mus musculus with 6 samples.

Results

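The immunoglobulin heavy variable (Ighv) segments are the gene pieces from which the antigen-binding end of an antibody heavy chain is built. They were taken from the deposited gene table as every entry of the biotype IG_V_gene whose name begins with Ighv, which gave 113 of the 48709 genes listed. For each library the share of each segment in all Ighv exon reads was computed, together with the evenness of usage over the 113 segments. The samples were not sorted as B cells. They were RNA-seq libraries of natural killer T cells from mouse spleen, named invariant (iNKT) in the series' design, which are T cells with a semi-invariant receptor for lipids. The cells were flow sorted and taken in the resting state. The labels describe 3 samples as WT and 3 as Gpx4 cKO, a conditional knockout of the glutathione peroxidase gene Gpx4. They give no Cre driver, strain, age or sex, and do not say whether samples came from separate animals. The 6 libraries in the table are numbered 18 to 23, and 0 of their names occur in a label, so the genotype of each library is unknown here and the genotypes were not compared. Libraries are described one by one, by number.

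In a developing B cell, 1 Ighv segment is joined by the RAG recombinase to a diversity (D) and a joining (J) segment, and the joined gene is transcribed and spliced to a constant gene such as Ighm or Igha. Each B cell clone keeps its own V segment, and a plasma cell, the antibody-secreting descendant of a B cell, carries very large amounts of that single transcript. Developing T cells rearrange T cell receptor genes instead, and mature T cells make no antibody. The source of the reads described here was not tested. In bulk RNA, fewer cells of a type and less RNA per cell cannot be told apart. Many reads can come from 1 cell, so the intervals below, all at 95%, cover counting error only and not the sampling of clones.

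All 113 segments lie on the minus strand of chromosome 12 (GRCm38), from 156 to 2577 kb away from Ighm at chr12:113418558-113422730, and all 113 were matched to GENCODE M21 transcripts. Shown here are the segments that came first or second in the usage of a library. Each line gives 120 bases of coding sequence, 5' to 3' on the coding strand, from the 3' end of the V region, where the segment joins the rest of the heavy chain. The codon in capitals encodes the conserved second cysteine, which closes the disulfide bond of the variable domain.
Ighv3-6: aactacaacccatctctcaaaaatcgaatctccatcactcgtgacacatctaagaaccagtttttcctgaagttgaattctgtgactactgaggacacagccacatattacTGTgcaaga
Ighv3-8: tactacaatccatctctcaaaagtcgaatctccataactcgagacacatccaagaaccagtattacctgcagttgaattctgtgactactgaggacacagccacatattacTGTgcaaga
Ighv7-3: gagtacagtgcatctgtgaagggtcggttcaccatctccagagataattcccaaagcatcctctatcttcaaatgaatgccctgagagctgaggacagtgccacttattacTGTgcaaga
Ighv1-26: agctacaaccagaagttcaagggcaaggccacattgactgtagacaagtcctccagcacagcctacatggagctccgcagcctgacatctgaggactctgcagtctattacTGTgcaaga
Ighv1-64: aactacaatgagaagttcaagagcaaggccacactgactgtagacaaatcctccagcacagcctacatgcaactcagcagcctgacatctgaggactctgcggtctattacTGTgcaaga
Ighv1-69: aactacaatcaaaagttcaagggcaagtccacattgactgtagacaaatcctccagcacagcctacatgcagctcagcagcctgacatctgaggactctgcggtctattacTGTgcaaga
The genes lie at chr12:114288152-114288582 (Ighv3-6), chr12:114322327-114322801 (Ighv3-8), chr12:114153180-114153644 (Ighv7-3), chr12:114788372-114788805 (Ighv1-26), chr12:115507545-115508031 (Ighv1-64) and chr12:115623161-115623595 (Ighv1-69). Ighv3-8 has Ighv3-6 as its closest relative, at 87.8% identity, while Ighv1-69 is 97.3% identical to Ighv1-50 and Ighv7-3 is 95.2% identical to Ighv7-2. Over the last 292 bases of the V region, 62 of the 113 segments had another segment at an identity of at least 95%, which is why the assignment of reads to close relatives is examined below.

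Ighv exon reads were present in every library. They numbered 970, 4490, 3612, 683, 3765 and 1632 in libraries 18 to 23, out of 8020374, 10122187, 5432206, 903524, 5406110 and 1916746 exon reads in the same order. As a level, in CPM (exon reads scaled to TMM effective library sizes), the sum over the segments was 117, 423, 657, 824, 695 and 860 CPM. The exact Poisson intervals were 110 to 124, 410 to 435, 635 to 678, 764 to 888, 673 to 718 and 819 to 903 CPM. Library 18 was far below the others, and the highest level was 7.36 times the lowest, or 2.04 times when library 18 was left out. Libraries 21 and 23, the shallowest, had the highest levels, with overlapping intervals.

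Other transcripts of the antibody-making lineage differed between the libraries too. Jchain, which links IgA and IgM into polymers, stood at 150, 480, 875, 955, 759 and 1185 CPM in libraries 18 to 23. The summed plasma cell and plasmablast list, of which 15 of 16 genes were matched, was lowest in library 18 (1270 CPM) and highest in library 23 (8344 CPM), with the constant gene Igha at the top of the list in each. The light constant genes summed to 634 and 4645 CPM in the same libraries. Other members of the plasma list had another order. Slamf7, a surface receptor also found on other lymphocytes, stood at 276, 348, 275, 165, 265 and 182 CPM, and Prdm1, a transcription factor that T cells express too, at 65.1, 147, 62.2, 37.4, 76.8 and 42.2 CPM. Both were lowest in libraries 21 and 23, where Jchain was highest. By the chi-square test described below, 11 of 11 tested plasma genes, 7 of 7 B cell genes, 8 of 8 iNKT and T cell genes and 3 of 3 erythroid genes varied, beside 71.6% of all tested genes, so the calls do not set these lists apart. The B cell list, led by Ighm, was lowest in library 19 (286 CPM) and highest in library 20 (924 CPM), and no list member was at 0. Of the plasma list, Tnfrsf17 was at 0 in libraries 18 and 20 and Ighg1 in libraries 18 and 19, and Mzb1 stood at 0.482 to 13.7 CPM. Globin and other erythroid genes summed to 3.98 and 4.80 CPM in libraries 18 and 19 and to between 62.8 and 280 CPM in the others. The iNKT and T cell list summed to 2870 to 3325 CPM, and the 5 myeloid genes matched of 6 spanned 1.21 to 4.34 CPM, with S100a8 at 0 throughout. The part that other cell types or depth have in the Ighv values was not tested.

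The reads on segments, constant genes and light chains kept a fairly steady proportion. For every 100 reads on heavy constant genes there were 11, 14.4, 13.9, 14.2, 10.1 and 11.4 Ighv reads in libraries 18 to 23. For every 100 reads on kappa variable (Igkv) segments there were 44.1, 44.5, 48.7, 68.6, 47.1 and 54.3. Library 21 was the highest by the second measure and lay within the others by the first. The 19 D genes had 0 reads and the 4 heavy joining genes together 1.08 to 22.7 CPM, and both kinds are short. The 70 entries for Ighv pseudogenes held 22 reads in all, against 15152 on the 113 segments.

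Of the 113 segments, 92 were read in at least 1 library, 34 in every library and 6 in a single library, and 21 had no read anywhere. The segments read numbered 56, 78, 80, 53, 72 and 63 in libraries 18 to 23. Brought to the 683 reads of library 21 by calculation, the expected numbers were 54.4, 63.8, 68.0, 53.0, 62.1 and 57.9, so the libraries also differed at equal depth. Of the 21 unread segments, 17 have an intact reading frame up to the cysteine codon in GENCODE and 4 do not (Ighv8-2, Ighv1-16, Ighv8-9 and Ighv8-13). The remaining segment without an intact frame, Ighv1-67, had 6 reads. A count of 0 in 1 library allows a share of up to 0.0668% in library 19 and up to 0.439% in library 21.

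Usage was broad in all libraries, with no segment holding most of the reads. The leading segment was Ighv3-6 in 4 libraries, namely 18, 19, 22 and 23, where it held 14.0% of Ighv reads (Wilson interval 12 to 16.3), 11.8% (10.8 to 12.7), 15% (13.9 to 16.2) and 10.6% (9.20 to 12.2). In library 20 Ighv3-8 led with 10.2% (9.24 to 11.2), just above Ighv3-6 with 9.41% (8.50 to 10.4). In library 21 Ighv7-3 led with 24.2% (21.1 to 27.5), ahead of Ighv3-6 with 11.3% (9.12 to 13.9). The lead of Ighv3-8 was thus within counting error, while that of Ighv7-3 was not. Exon length was 353 bases in the median (294 to 480). Counted per base of exon length, Ighv3-6 was ahead in library 20 with 9.94% against 9.56% for Ighv3-8, and the leaders of the other 5 libraries were as before.

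**Figure D1:**
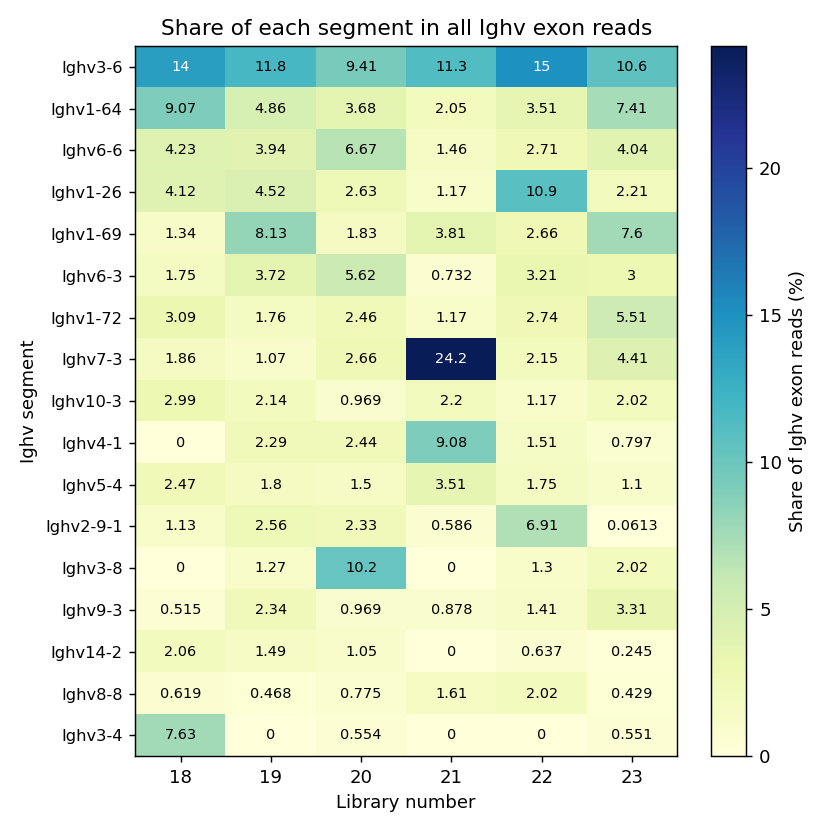
Share of each of the 17 named segments (vertical axis, ordered by median share) in all Ighv exon reads of each library (horizontal axis), with the value in percent in each cell and darker cells for larger shares. Ighv3-6 is dark across the top, from 9.41% to 15%, and Ighv7-3 in library 21 is the darkest cell, at 24.2%.

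The evenness of usage, the Shannon entropy of the shares divided by its maximum over 113 segments, where 1 means equal shares, was 0.719, 0.769, 0.781, 0.652, 0.746 and 0.732 in libraries 18 to 23. Its intervals were 0.705 to 0.733, 0.762 to 0.775, 0.773 to 0.788, 0.631 to 0.673, 0.739 to 0.754 and 0.722 to 0.743. The effective number of segments, the inverse of the chance that a pair of reads falls on the same segment, was 19.7 (17.7 to 21.8), 25.2 (23.9 to 26.4), 25.6 (24.2 to 27.0), 11.1 (9.49 to 12.8), 19.5 (18.2 to 20.7) and 22.5 (21 to 24). Library 21 was the least even by each measure and the interval of its effective number overlapped no other, whereas libraries 19 and 20 were the most even. The ratio of highest to lowest effective number was 2.30, and 1.32 without library 21. Library 21 is also the shallowest, and the part of depth in its low values was not tested.

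The most used segments took up the reads quickly. The first 10 segments of each library held 59.2, 49.9, 50.5, 67.1, 53.3 and 58.3% of Ighv reads in libraries 18 to 23, and 8, 11, 10, 5, 9 and 8 segments sufficed to reach 50%. Which segments these were changed from library to library. In all, 32 segments were among the first 10 of some library, but only Ighv3-6 and Ighv1-64 were in all 6 of these lists.

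**Figure D2:**
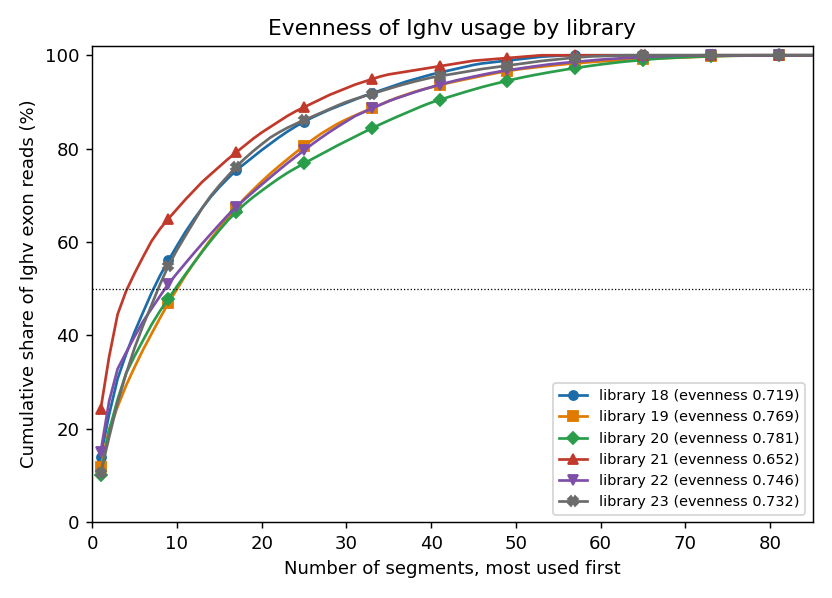
Cumulative share of Ighv exon reads (vertical axis, percent) against the number of segments, most used first (horizontal axis), with 1 line per library and the dotted line at 50%. The line of library 21 rises fastest and reaches 50% with 5 segments, and that of library 19 needs 11.

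Beyond these general measures, single segments differed widely between libraries. For each gene with at least 200 exon reads, a chi-square test compared its counts with the effective library sizes, with Benjamini-Hochberg adjustment over all 9042 genes tested and a threshold of 0.05. Only 25 of the 113 segments had enough reads, and 25 of these 25 varied by more than counting error, against 71.6% of all tested genes. The other 88, of which 21 had no read at all, were not tested. The highest level of a tested segment was 14.4 times its lowest in the median, where the 5 segments with a library at 0 were counted as infinite, against 1.57 times over all tested genes (58 with a library at 0). The test and these ratios are on levels, so a segment with a steady share still varies where the summed Ighv level does. That summed level alone differed 7.36 times between libraries. The segments and all tested genes were not matched for read count, and low counts widen such a ratio. The counting test says nothing about genotype.

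Ighv3-6 kept a high share throughout. Its reads were 136, 528, 340, 77, 565 and 173 in libraries 18 to 23, which is 14.0, 11.8, 9.41, 11.3, 15 and 10.6% of Ighv reads. It was first or second in every library, and libraries 20 and 22 differed beyond their intervals. As a level it was lowest in library 18 (16.4 CPM) and highest in library 22 (104 CPM), with a chi-square adjusted p of 2.52e-111. Its nearest relative, Ighv3-1, is 93.2% identical to it, and 99.5% of its exon reads matched a single place.

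Ighv7-3 was high in a single library. Its reads were 18, 48, 96, 165, 81 and 72, with shares of 1.86, 1.07, 2.66, 24.2, 2.15 and 4.41% in libraries 18 to 23. Library 21 stood apart, with 5.48 times the share of the next library, and all of the segment's exon reads matched a single place. In the same library Ighv4-1, the single listed member of its family, reached 9.08%, against 0, 2.29, 2.44, 1.51 and 0.797% in libraries 18, 19, 20, 22 and 23. That library also held 13.9% of its heavy constant reads on Ighg1, against at most 3.76% elsewhere. Counts per gene do not show whether these reads came from the same transcripts.

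Most reads of Ighv3-8 came from library 20. It had 0, 57, 368, 0, 49 and 33 reads, or shares of 0, 1.27, 10.2, 0, 1.30 and 2.02% in libraries 18 to 23. The 0 of 970 reads in library 18 allow a share of up to 0.309%, and the 0 of 683 in library 21 up to 0.439%. Library 20 also had the highest shares of a pair of Ighv6 segments that lie close by on the chromosome. Ighv6-6 (chr12:114434788-114435244) held 4.23, 3.94, 6.67, 1.46, 2.71 and 4.04% and Ighv6-3 (chr12:114391712-114392169) held 1.75, 3.72, 5.62, 0.732, 3.21 and 3.0%. Both were lowest in library 21.

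In library 22 the second segment was Ighv1-26, whose reads numbered 40, 203, 95, 8, 411 and 36 in libraries 18 to 23. These are 4.12, 4.52, 2.63, 1.17, 10.9 and 2.21% of Ighv reads, so library 22 held more than the others by a wide margin. Only 83.1% of its exon reads matched a single place, and its share in library 22 was 9.50% when such reads alone were counted. Its closest relative is Ighv1-18, with 8 differences in 292 bases, of which 2 fall in the 120 bases below, where the differing bases are in capitals.
Ighv1-26: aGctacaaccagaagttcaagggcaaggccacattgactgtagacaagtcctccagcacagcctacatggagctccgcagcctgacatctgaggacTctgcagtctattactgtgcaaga
Ighv1-18: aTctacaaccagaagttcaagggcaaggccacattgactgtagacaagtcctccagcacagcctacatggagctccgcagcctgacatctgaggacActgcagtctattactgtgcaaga
Ighv1-18 (chr12:114682632-114683065) itself had 48 reads in all, of which 93.75% matched a single place. Where else the remaining reads of Ighv1-26 matched is not known here. Library 22 also led in Ighv2-9-1 (chr12:113769850-113770302), with 1.13, 2.56, 2.33, 0.586, 6.91 and 0.0613% in libraries 18 to 23, the last resting on 1 read. Its heavy constant reads differed as well, with 57.3% on the Ighg genes (31.3% on Ighg2c alone) and 33.6% on Igha.

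A pair of distal Ighv1 segments was high in several libraries each. Ighv1-64 held 9.07, 4.86, 3.68, 2.05, 3.51 and 7.41% and was highest in libraries 18 and 23. Ighv1-69 held 1.34, 8.13, 1.83, 3.81, 2.66 and 7.60% and was highest in libraries 19 and 23. The intervals of Ighv1-69 in these libraries, 7.37 to 8.96% and 6.41 to 8.99%, lay above all others. Ighv1-72 (chr12:115757984-115758461) held 3.09, 1.76, 2.46, 1.17, 2.74 and 5.51%. It is 99.3% identical to Ighv1-62-3, and 87.7% of its reads matched a single place.

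In library 18, with the lowest Ighv level, the segments after Ighv3-6 and Ighv1-64 were 2 further members of the Ighv3 family. Ighv3-4 (chr12:114253617-114254051) had 74, 0, 20, 0, 0 and 9 reads, or 7.63% in library 18 and at most 0.554% elsewhere. Its share in library 18 was 13.8 times that of the next library, and it was read in only 3 of the 6. Ighv3-1 held 5.26% in library 18 and at most 0.878% elsewhere. With 103 and 117 reads in all, neither reached the count needed for the test.

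Across the 113 segments, 6 had at least 50 reads in 1 library and a share there over 5 times that of the next. These were spread over 4 libraries. They were Ighv3-4 and Ighv3-1 in library 18, Ighv3-8 and Ighv1-54 in library 20 (2.93 against 0.319% for the latter), Ighv7-3 in library 21 and Ighv1-42 in library 23 (6.19 against 0.823%). The ratios ran from 5.04 for Ighv3-8 to 13.8 for Ighv3-4. A floor of 50 reads is a larger share in a library with fewer Ighv reads, so the rule is not equal between libraries. Shares of at least 5% in some library were reached by 14 segments. The remaining named segments were less extreme. Ighv5-4, Ighv9-3 and Ighv10-3 held at most 3.51, 3.31 and 2.99%, and Ighv14-2 and Ighv8-8, which were not tested, at most 2.06 and 2.02%.

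Segments are grouped into families by sequence, numbered in their names. Ighv1, the largest mouse family, counts 53 of the 113 segments (46.9%) and held 40.6, 54.8, 38.4, 34.3, 51.1 and 58.0% of Ighv reads in libraries 18 to 23. It was thus above its share of the segment list in libraries 19, 22 and 23 and below it in the other 3. Ighv3, with 6 segments, held 26.9, 13.2, 21, 12.2, 16.8 and 13.4%, which is above its 5.31% of the list in every library. Without Ighv3-6, the other 5 segments, 4.42% of the list, held 12.9, 1.47, 11.6, 0.878, 1.75 and 2.82% and were below their share of the list in 4 of 6 libraries. Ighv6, with 5 segments, ranged from 2.20% in library 21 to 13.3% in library 20. Ighv8, with 9 segments (7.96% of the list), of which 4 had reads, held 0.551 to 4.39%. The families Ighv15 and Ighv16, with 1 listed segment each, had no reads.

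**Figure D3:**
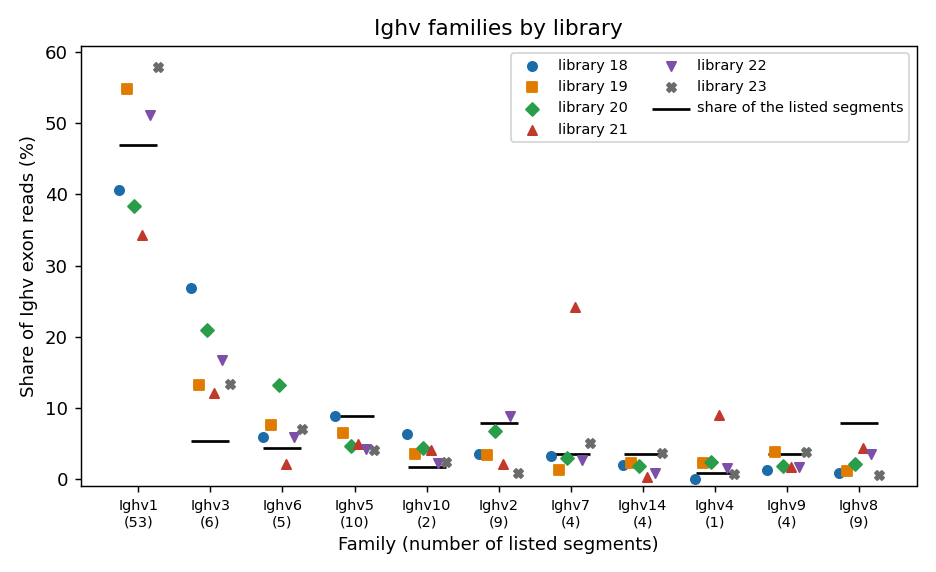
Share of Ighv exon reads (vertical axis, percent) held by each family that reaches 1% in a library (horizontal axis, number of listed segments in parentheses), with 1 symbol per library and a black bar at the family's share of the 113 segments. All 6 symbols of Ighv3 lie above its bar, at 12.2 to 26.9%, and Ighv7 in library 21, at 24.2%, lies far from the other libraries.

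Position along the locus was also described, since segments near the constant genes and far from them come from different families. The 37 segments nearest to Ighm held 31.2, 19.4, 21.6, 42.5, 20.8 and 19.2% of reads in libraries 18 to 23, and the next 38 held 37.1, 37.3, 51.1, 31.0, 45.4 and 37.5%. The 38 most distant, from the families Ighv1 and Ighv8 only, held 31.6, 43.3, 27.4, 26.5, 33.8 and 43.3%. Reads came from all 3 stretches in every library. Library 21 was highest in the nearest stretch, which holds Ighv7-3 and Ighv4-1, library 20 in the middle one, and libraries 19 and 23 in the most distant.

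**Figure D4:**
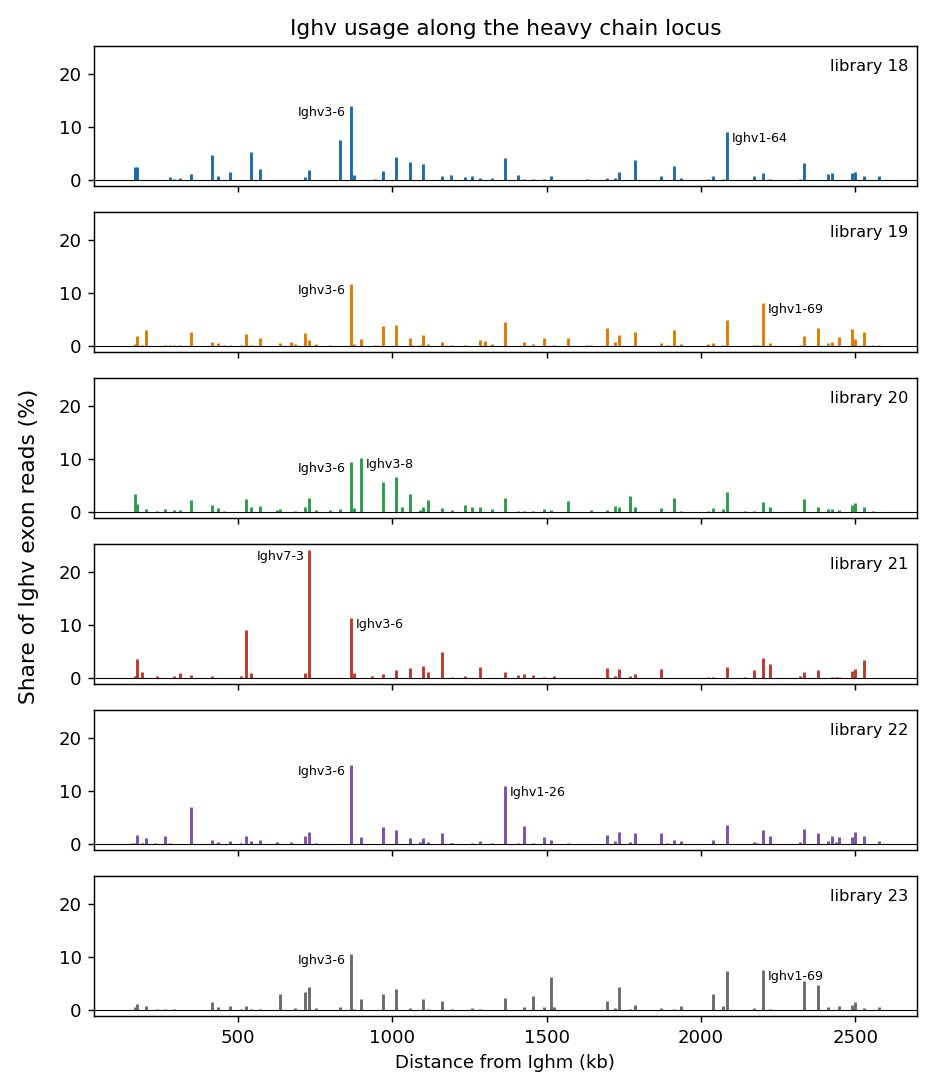
Share of Ighv exon reads (vertical axis, percent) of each segment against its distance from Ighm (horizontal axis, kb), with 1 panel per library and the names of its 2 leading segments. A bar for Ighv3-6, 865 kb from Ighm, is among the 2 tallest in all panels, at 9.41 to 15%.

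Libraries were compared in pairs by the Morisita overlap of their shares, which is 1 for equal usage and 0 for no shared segment. Over the 15 pairs it ranged from 0.417 to 0.842 with a median of 0.686. The pairs with library 21 reached at most 0.512, and all pairs without it were at least 0.667. Libraries 19 and 22 were the most alike, with 6 of their first 10 segments in common. The other pairs had 2 to 5 in common.

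The spread of usage can be set beside that of the other receptor genes in the same libraries. Over 100 Igkv segments, the kappa light chain counterpart, the median effective number was 18.7 (10.4 to 21.7 over libraries), against 21.1 (11.1 to 25.6) for Ighv, so the ranges overlapped. The receptor segments of the sorted T cells themselves had lower effective numbers. For Trav, the alpha chain V segments, the median was 1.83 (1.69 to 2.18), with Trav11, the segment of the invariant chain, at 67.2 to 76.7% of reads. For Trbv it was 4.06 (3.72 to 4.78), but only 22 Trbv segments are listed, which limits this number. Evenness, scaled to the length of each list, was 0.248 to 0.357 for Trav, 0.558 to 0.621 for Trbv and 0.652 to 0.781 for Ighv. In every library the Ighv value lay above the Trav and Trbv values, a difference that was not tested. Reads per library numbered 61 to 1081 for Trav, 196 to 3066 for Trbv and 683 to 4490 for Ighv. The classes were not brought to equal depth, and few reads can lower evenness.

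A spliced heavy chain transcript carries no intron reads between leader and V exon. From the deposited ratios of intron reads, 34.7, 33.3, 32.1, 33.3, 30.9 and 30.8% of the reads on Ighv genes with exon reads fell on introns in libraries 18 to 23, a narrow range over libraries. Between segments the range was wide. Among the 43 segments with at least 100 exon reads it ran from 0 to 53.3%, with a median of 26.1%. Ighv7-3 (53.3%), Ighv1-69 (50.7%) and Ighv3-6 (48.2%) were high, whereas Ighv2-9-1 (2.26%) and Ighv4-1 (3.0%) were low and Ighv1-55, with 293 exon reads, had none. Ighv8-12, with 135 exon reads, had none either. The value for Ighv3-6 stayed between 44.6 and 54.1% in the single libraries and that for Ighv1-64 between 3.97 and 17.6%. These are shares of reads, not scaled to intron length, and do not measure the part of unspliced RNA. Ighv3-6 has 350 bases of exon in a gene at chr12:114288152-114288582, so its intron is far shorter than its exons. It nevertheless had 1690 intron reads beside 1819 exon reads, and the origin of such reads was not tested. The 21 segments with an exon length above 358 bases, the median of the 43, had a median intron share of 14.7% and the other 22 a median of 31.0%. This split was chosen after the values were seen. With exon and intron reads summed, Ighv3-6 led library 20 with 13.5%, ahead of Ighv3-8 with 7.88%, and Ighv7-3 held 30.0% in library 21.

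**Figure D5:**
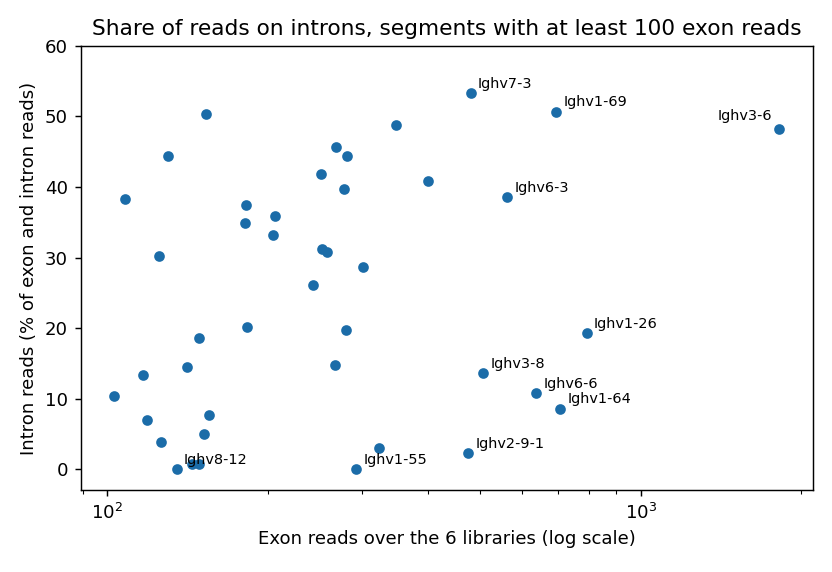
Share of reads on introns (vertical axis, percent of exon and intron reads) against exon reads summed over the 6 libraries (horizontal axis, log scale) for the 43 segments with at least 100 exon reads. Points spread from 0 to 53.3%, and Ighv3-6, the most read, is at 48.2%.

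Closely related segments set a limit to these shares. Over all segments 96.1 to 98.7% of exon reads in a library matched a single place. Of the 71 segments with at least 20 reads, 5 had under 90% such reads. Among them were Ighv1-62-2 (chr12:115446409-115446869) and Ighv1-71 (chr12:115742205-115742647), which are identical over all 292 bases compared, as the 120 bases printed here show, with no base in capitals.
Ighv1-62-2: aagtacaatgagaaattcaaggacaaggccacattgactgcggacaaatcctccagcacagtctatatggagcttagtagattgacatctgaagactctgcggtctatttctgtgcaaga
Ighv1-71: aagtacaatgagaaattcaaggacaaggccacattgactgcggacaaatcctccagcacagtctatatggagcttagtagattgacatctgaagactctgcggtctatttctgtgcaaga
Of their 24 and 26 reads, 12.5 and 0% matched a single place. The others cannot be told apart and are uncertain for either segment.

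Genes of the machinery around these segments were low or varied in their own way. Of the 12 B cell receptor signalling genes, 7 were tested and 7 varied, beside 71.6% of all tested genes. Their sum was 49.5 to 110 CPM in 5 libraries and 660 CPM in library 23, where the kinase gene Syk alone had 589 CPM against at most 15.8 elsewhere. Of the 6 recombination and mutation genes only Ung was tested, and it did not pass (chi-square adjusted p = 0.19). The recombinase genes Rag1 and Rag2 had at most 2.41 CPM, which was 2 reads of Rag1 in library 21. Neither had more than 4 reads in a library, and both were at 0 in libraries 18 and 19. Among genes outside the antibody loci with a mean of at least 20 CPM, 21 of 6433 had the same order over the 6 libraries as the Ighv level (Spearman rho 1, a description only, since such an order over 6 libraries is shared by many genes). The closest by log2 CPM was Swt1 (Pearson r 0.971), at 43.7 CPM in library 18 and 56.4 CPM in library 23, followed by Ccdc167, Tsc22d3, Wdr44 and AU040320.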

How the data were processed

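Per the labels' protocols, the NucleoSpin RNA XS Micro kit was used for RNA and the QIAseq UPXome kit for libraries. The submitters' processing notes name the builds GRCm38 and mm10. The aligner, annotation release, strand use and molecular identifiers were not given in the sources used here. Per the file headers, the deposited table holds whole counts of exon reads per gene, not normalized. It also holds the deposited fraction of exon reads that match a single place and the deposited ratio of intron reads to all reads of a gene. Unique and intron reads were recovered from these, the latter for genes with an exon read in the library, and were whole within 0.01 in 402 of 402 Ighv values. The 13 other value columns per library were not used.

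Library names matched no label, so the planned edgeR quasi-likelihood comparison of genotypes was not run. CPM used TMM factors (edgeR 4.0.16, R 4.3.3, filterByExpr with 1 group). Shares have Wilson intervals, levels exact Poisson intervals, and evenness and effective number intervals from the multinomial variance, at 95%; the limit for a count of 0 is 3 reads. The intervals cover counting error only and take reads as independent, as does the chi-square test. PCR copies make reads dependent, so the intervals can be too narrow and the p-values too small. Evenness, the effective number and the chi-square test (5 degrees of freedom, at least 200 reads) were tested on simulated data. Sequences came from GENCODE M21 transcripts; segments were compared by global alignment with Biopython 1.88.

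Named segments were the 3 largest in each library, the 10 with the highest median share, and the leading segment of each family with at least 1% in the median library. Others singled out (Ighv1-42, Ighv1-54, Ighv3-1, Ighv1-55, Ighv8-12, Ighv1-18, the identical pair and the segments without an intact frame) were chosen after their values were seen. The members and lists were chosen with earlier results of these data known.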

Additional observations from a re-analysis of the deposited data

Results flagged for a closer look

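A library far from the other 5, by Dixon's rule for groups of 6, was found in 9 of 34 values examined. Chance flags about 1 in 20 groups chosen without regard to their values, and shares in a library are not independent of each other. Many segments were named because they were among the 3 largest in a library, so that rate does not apply to their shares. No explanation was weighed.

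Library 21 stood apart in the share of its leading segment (24.2%), which was Ighv7-3 (24.2%) and here made up the whole of family Ighv7 (24.2%), and in Ighv4-1 (9.08%), the sole listed member of family Ighv4 (9.08%). Library 20 was far from the others in Ighv3-8 (10.2%). Library 22 was so in Ighv1-26 (10.9%) and Ighv2-9-1 (6.91%), and library 18 in Ighv3-4 (7.63%).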

How the results depend on the processing

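No paired analysis was possible because the library names carry neither a genotype nor a replicate number of the labels.

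Values in this paragraph are in the order of libraries 18 to 23. Unique reads and reads per base of exon length moved no evenness, effective number or leading share beyond its interval, and the Miller-Madow correction, run for evenness, moved no evenness. With exon and intron reads summed, an alternative chosen after seeing the data, the share of the segment that led by exon reads was 19.9, 14.5, 7.88, 30.0, 19.4 and 13.2%, evenness 0.696, 0.745, 0.769, 0.605, 0.727 and 0.710, and the effective number 15.4, 19.9, 22.7, 8.03, 16 and 18.5. With only segments of at least 10 reads in the list, evenness was 0.769, 0.822, 0.835, 0.695, 0.798 and 0.785, since its maximum falls with the list. Without the leading segment of each library, evenness was 0.738, 0.786, 0.793, 0.707 and 0.774 in libraries 18 to 22, and the effective number 23.7, 30.0, 28.1, 18.1, 25 and 24. Library 21 stayed lowest in evenness under each of these settings, and in effective number under those for which it was computed.

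By plain library totals the Ighv level was 444 CPM in library 19 and 756 CPM in library 21. The count of segments varying beyond counting error was 25 of 25 tested with DESeq2 size factors (71.6% of all tested genes), 52 of 52 with at least 50 reads (69.3%) and 84 of 92 with no filter (53.9%). Leaving out 1 library at a time, also chosen after seeing the data, it was 13 of 13 to 25 of 25 tested (61 to 68.4% of all tested genes). Every tested segment varied each time, and the 13 were without library 19, where fewer segments reached 200 reads. The medians over libraries, with each left out in turn, were 11.8 to 14.0% for the leading share, 0.732 to 0.746 for evenness, 19.7 to 22.5 for the effective number and 657 to 695 CPM for the level. Depth limits library 21, with 683 Ighv reads, and library 18, with 970.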
